A study of Mus musculus with 32 samples.

Results

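Whole-liver mRNA of 10 genes activated by the transcription factor p53 was compared over 4 groups of mice. The genes were Cdkn1a, Mdm2, Ccng1, Gdf15, Phlda3, Eda2r, Trp53inp1, Bbc3, Bax and Btg2, taken by their symbols from a table of 55487 genes. Each symbol matched 1 gene, and 10 of 10 were among the 14902 genes with enough counts to be tested. Some mice were wild type (WT), and in the others 1 residue of FAAH, a hydrolase of amides such as anandamide and the N-acyl taurines, was exchanged (FAAH S268D). Diets are named NASH and NASH-AA in the labels, and the series text describes 28 weeks of HFFC feed without or with ARA. The groups were WT on NASH, WT on NASH-AA, FAAH S268D on NASH and FAAH S268D on NASH-AA, with 8 libraries each, and no group was kept on ordinary feed. The sources used here give neither age nor sex, and do not say that each library came from a separate animal. The p-values below therefore measure the spread between libraries.

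The protein p53 is held at a low level by Mdm2, a ubiquitin ligase whose own gene p53 activates, so that the pair forms a negative feedback loop. After DNA damage or other stress p53 accumulates, binds response elements built from paired half-sites, and raises genes that stop the cell cycle, repair DNA or start apoptosis. In liver, p53 targets respond to genotoxic injury and to partial hepatectomy, and several of them (Cdkn1a, Gdf15 and Btg2 among them) are also controlled by other stress pathways. Their transcript levels are therefore not a direct measure of p53 activity. In RNA from whole liver, fewer cells of a type and less RNA per cell cannot be told apart, and the cell of origin of a transcript is not known.

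Promoter windows of 250 bases before each annotated start were searched for the p53 half-site consensus. The consensus is its own reverse complement, so that 1 search covers both strands, and no other motif was sought. RefSeq sequences on GRCm38.p6 gave 13 windows for 9 of the 10 genes. Half-sites were found in 1 window each of 4 genes (4 of 13 windows), against 2341 of 32851 windows of the same length over all genes (7.13%). The 4 windows are shown because each holds at least 1 half-site. The other Cdkn1a window (chr17:29093519-29093768) holds no match. Capitals mark the half-sites, and each run reads 5′ to 3′ on the strand of the gene.
Cdkn1a, chr17:29090729-29090978, plus strand: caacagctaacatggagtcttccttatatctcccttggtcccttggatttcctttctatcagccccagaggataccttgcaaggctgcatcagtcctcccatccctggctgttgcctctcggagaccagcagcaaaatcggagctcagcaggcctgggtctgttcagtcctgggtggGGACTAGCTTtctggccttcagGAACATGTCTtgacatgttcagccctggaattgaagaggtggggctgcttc
Mdm2, chr10:117710759-117711008, minus strand: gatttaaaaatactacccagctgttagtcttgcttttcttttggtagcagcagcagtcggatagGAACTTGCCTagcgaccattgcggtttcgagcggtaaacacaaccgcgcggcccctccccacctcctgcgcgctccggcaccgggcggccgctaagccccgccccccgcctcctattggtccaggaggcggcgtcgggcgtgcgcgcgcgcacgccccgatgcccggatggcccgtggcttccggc
Ccng1, chr11:40755287-40755536, minus strand: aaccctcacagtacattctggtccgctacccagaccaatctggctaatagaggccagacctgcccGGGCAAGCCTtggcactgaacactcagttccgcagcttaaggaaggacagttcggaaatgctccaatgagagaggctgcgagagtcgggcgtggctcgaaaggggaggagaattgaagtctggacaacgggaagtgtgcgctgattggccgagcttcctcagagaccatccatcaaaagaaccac
Bax, chr7:45466899-45467148, minus strand: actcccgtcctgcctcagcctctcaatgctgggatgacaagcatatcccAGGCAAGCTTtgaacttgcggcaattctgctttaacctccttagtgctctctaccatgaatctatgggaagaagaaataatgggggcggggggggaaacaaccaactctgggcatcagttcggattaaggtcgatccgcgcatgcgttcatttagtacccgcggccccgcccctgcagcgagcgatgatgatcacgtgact
The Cdkn1a window holds 2 half-sites and the other windows shown 1 each. A match describes the letters in a window and is not a measured binding site. The windows of Gdf15, Phlda3, Eda2r, Bbc3 and Btg2 hold no match to these letters, which says nothing of elements elsewhere in those genes. Trp53inp1 had no entry.

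Libraries held 3851388 to 34370023 counts with a median of 22896438, and levels are given as normalised CPM, counts scaled to a common library size. 3 libraries of the FAAH S268D NASH group stood apart in the values of these genes. Replicate 1 was the shallowest of the 32 libraries. Replicate 2 was the lowest of its group for Cdkn1a, Phlda3, Mdm2, Ccng1 and Bax, and replicate 8 the highest for Cdkn1a, Phlda3, Mdm2, Ccng1, Eda2r, Trp53inp1 and Bbc3. Mitochondrial transcripts took 5.37% to 7.84% of counts, with group medians between 6.16% and 6.76%. Hepatocyte markers were high in every library (20 genes summing to 74000 CPM or more), as the tissue label says. Markers of muscle and kidney summed to at most 0.356 and 0.139 CPM in any library.

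**Figure D1:**
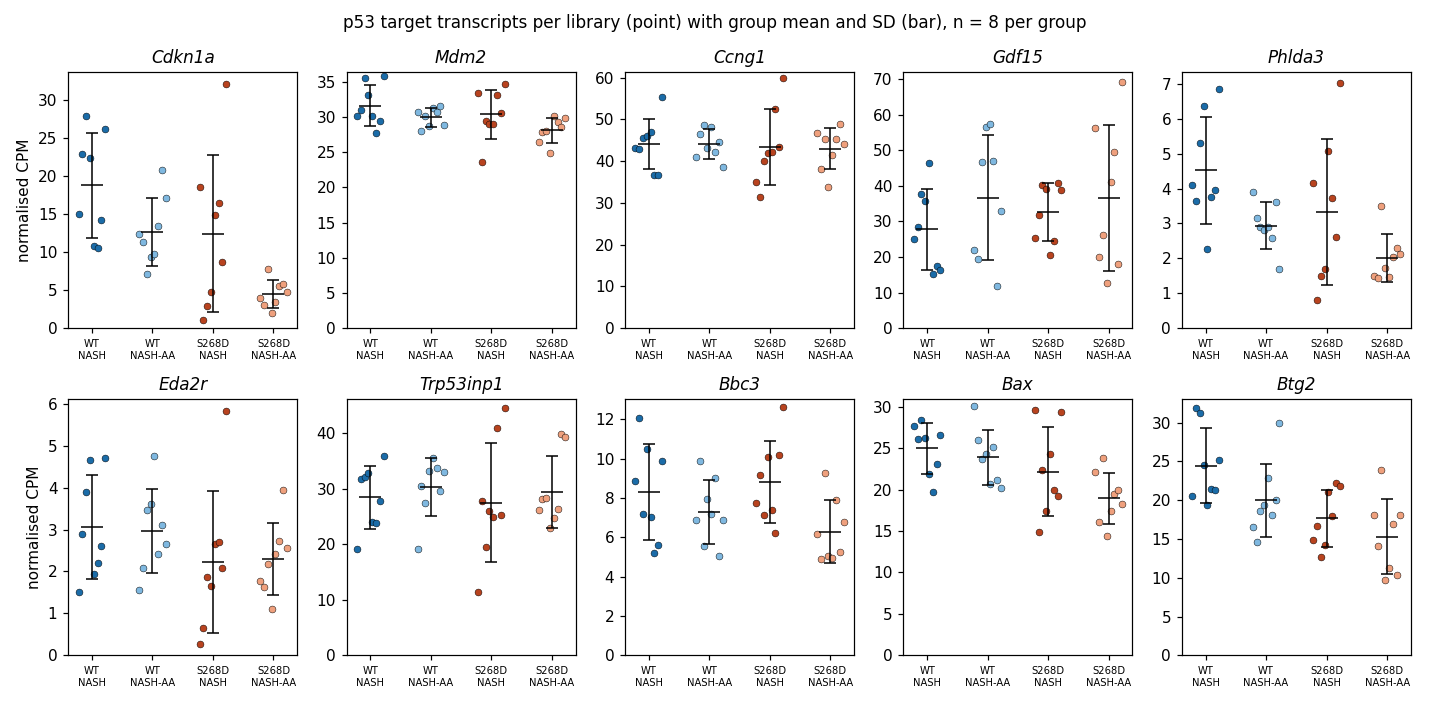
Normalised CPM of the 10 p53 targets, with 1 panel per gene and 1 point per library. The horizontal bar and whiskers are the group mean and SD (n = 8), and the vertical axes start at 0. Cdkn1a in the FAAH S268D NASH-AA group lies at 7.80 CPM or less in 8 of 8 libraries, while Cdkn1a in FAAH S268D NASH spans 1.09 to 32.1 CPM.

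Cdkn1a, Btg2 and Ccng1 act mainly on the cell cycle. Cdkn1a (chr17:29090976-29100727) encodes p21, an inhibitor of cyclin-dependent kinases that holds cells before S phase. Its level ran from 10.5 to 27.8 CPM in WT NASH with a median of 18.7. In WT NASH-AA the range was 7.15 to 20.8 CPM, with a median of 11.9. FAAH S268D on NASH gave 1.09 to 32.1 CPM with a median of 11.8, and FAAH S268D on NASH-AA 2.01 to 7.80 CPM with a median of 4.35. The order of the means was WT NASH (18.7 ± 6.89 CPM), WT NASH-AA (12.7 ± 4.44), FAAH S268D NASH (12.4 ± 10.3) and FAAH S268D NASH-AA (4.55 ± 1.84; SD, n = 8 each). Neighbours in that order overlapped, and their diet differences did not pass the test. The lowest and highest groups did not overlap: the highest FAAH S268D NASH-AA library lay below the lowest WT NASH library. Spread differed as well, with an SD of 82.9% of the mean in FAAH S268D NASH and 35.1% to 40.4% in the other groups. Within FAAH S268D NASH, replicates 1 to 8 held 18.5, 1.09, 2.86, 4.69, 14.8, 16.4, 8.69 and 32.1 CPM. That group thus included both the lowest and the highest Cdkn1a level of the 32 libraries.

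Btg2 (chr1:134075170-134079120), an antiproliferative cofactor of deadenylases, was 19.4 to 31.9 CPM in WT NASH (median 23.01). In WT NASH-AA it was 14.7 CPM at the lowest, with a median of 18.9 and a mean of 20.01 ± 4.71 (SD, n = 8). Its range was 12.7 to 22.2 CPM in FAAH S268D NASH (median 17.3) and 9.72 to 23.9 in FAAH S268D NASH-AA (median 15.5). Both genotypes overlapped on each diet, but 8 of 8 FAAH S268D NASH libraries lay below the WT NASH median. Ccng1 (chr11:40748552-40755311) encodes cyclin G1, which recruits protein phosphatase 2A to Mdm2. It was the most even of the cell cycle genes, with group medians between 42.1 and 44.8 CPM. Its full range was 31.5 to 59.97 CPM, both ends in FAAH S268D NASH.

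Mdm2 and Trp53inp1 act in feedback on p53. Mdm2 (chr10:117688875-117710758) had medians of 30.6 CPM on NASH and 30.4 on NASH-AA in WT, and of 29.98 and 28.2 CPM in FAAH S268D. All 4 ranges overlapped, and the lowest library overall was 23.7 CPM (FAAH S268D NASH replicate 2) and the highest 35.8 CPM (WT NASH). Trp53inp1 (chr4:11156431-11174379), a nuclear protein that favours p53 phosphorylation and also acts in autophagy, had medians of 29.8, 31.8, 25.6 and 27.3 CPM in the same order. It ranged from 11.3 CPM in the shallowest library to 44.5 CPM in FAAH S268D NASH replicate 8, so that this 1 group covered the range of the other 3. Trp53 itself (chr11:69580359-69591873), the gene for p53, averaged 24.3 ± 2.35, 23.3 ± 2.32, 23.02 ± 2.90 and 21.5 ± 1.91 CPM (SD, n = 8 each). Its transcript says little of the protein, which is controlled mainly by its stability.

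Bax, Phlda3, Bbc3 and Eda2r bear on apoptosis or survival. Bax (chr7:45461697-45466898) encodes the protein that forms pores in the outer mitochondrial membrane. It ran from 19.8 to 28.4 CPM in WT NASH (median 26.2) and from 20.2 to 30.1 in WT NASH-AA (median 23.98). In FAAH S268D the ranges were 14.8 to 29.6 CPM on NASH (median 21.1) and 14.4 to 23.8 on NASH-AA (median 18.8). On NASH-AA, 8 of 8 FAAH S268D libraries lay below the WT median, although the ranges overlapped. Phlda3 (chr1:135766119-135769136), a small pleckstrin-homology protein that restrains Akt, had a low level of 2.27 to 6.86 CPM in WT NASH (median 4.03) and 1.69 to 3.89 in WT NASH-AA (median 2.89). In FAAH S268D it was 0.806 to 7.03 CPM on NASH (median 3.18) and 1.43 to 3.49 on NASH-AA (median 1.89). As with Cdkn1a, the FAAH S268D NASH group had both the lowest and the highest library.

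Bbc3 (chr7:16308393-16318205) encodes Puma, a BH3-only activator of Bax. Its medians on NASH and NASH-AA were 8.04 and 7.03 CPM in WT, and 8.45 and 5.70 CPM in FAAH S268D. Its full range was 4.92 to 12.6 CPM, and all 4 groups overlapped between 6.19 and 9.28 CPM. Eda2r (chrX:97333840-97377216), a receptor of the tumour necrosis factor family for the ectodysplasin A2 ligand, had medians of 2.75, 2.88, 1.98 and 2.30 CPM in the same order. Its lowest value, 0.277 CPM, was a single count in the shallowest library, and its highest, 5.83 CPM, was FAAH S268D NASH replicate 8.

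Gdf15 (chr8:70629393-70632456) is the secreted member, a distant relative of the transforming growth factor beta family that is also induced by the integrated stress response. Its medians on NASH and NASH-AA were 26.7 and 39.7 CPM in WT, and 35.2 and 33.7 CPM in FAAH S268D. Within groups it ran from 15.3 to 46.5, 11.9 to 57.5, 20.6 to 40.9 and 12.7 to 69.2 CPM. These ranges overlapped throughout, and the order of the groups differed from that of Cdkn1a.

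Where reads come from along the whole transcript, levels are compared between genes per length. Whether they did so here was not tested, and the order below depends on it. On the scale of CPM per kilobase of exon, the median over 32 libraries was highest for Gdf15 (17.4), Bax (14.1) and Ccng1 (12.3). Btg2 (6.91), Mdm2 (5.90), Trp53inp1 (4.33), Bbc3 (3.38) and Cdkn1a (3.01) followed, with Phlda3 (1.86) and Eda2r (0.423) lowest. The ratio of the highest to the lowest library was 29.4 for Cdkn1a, 21.1 for Eda2r and 8.72 for Phlda3, against 1.51 for Mdm2 and 1.90 for Ccng1. Reads in bases shared by overlapping genes may not be told apart. This touches Bax, where Gm45808 on the same strand covers 12.2% of exon bases, whatever the counting strand. Cdkn1a is touched because AC167363.2 on the opposite strand covers 7.70% and the counting strand is not stated.

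Averaged over the diets, 3 of the 10 genes were lower in FAAH S268D than in WT and 0 were higher. They were Cdkn1a, Bax and Btg2. Cdkn1a fell 2.51-fold (log2 fold change -1.33 ± 0.31 SE, adjusted p = 0.00451 by limma-voom with Benjamini-Hochberg adjustment over 14902 genes), and 12 of 16 FAAH S268D libraries lay below the WT median. Btg2 fell 1.34-fold (-0.42 ± 0.12, adjusted p = 0.0129; 12 of 16 libraries). Bax fell 1.22-fold (-0.28 ± 0.08, adjusted p = 0.0167; 14 of 16 libraries). Of all genes tested, 17.2% passed in this comparison (10.3% lower and 6.90% higher), and the count of 3 in 10 stands against that background. The median log2 difference of the 10 genes was -0.18, against 0.01 over all genes. A negative sign was found for 9 of the 10, and for 48.6% of all genes. Phlda3 missed the threshold narrowly (-0.61 ± 0.22, adjusted p = 0.0516). Eda2r was at -0.42 ± 0.22 (adjusted p = 0.197) and Mdm2 at -0.08 ± 0.04 (adjusted p = 0.214). For Ccng1, Trp53inp1 and Bbc3 the log2 difference was -0.03 each, and for Gdf15 it was 0.15 ± 0.24 (adjusted p = 0.711). Trp53 was at -0.12 ± 0.05 (adjusted p = 0.0959).

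The calls did not rest on 1 library. Leaving out each of the 32 libraries in turn gave log2 differences between -1.47 and -1.12 for Cdkn1a, -0.32 and -0.24 for Bax, and -0.47 and -0.37 for Btg2, and each fit called all 3. Without FAAH S268D NASH replicate 1, 2 or 8, Cdkn1a was at -1.35, -1.12 and -1.47 (adjusted p = 0.00431, 0.00640 and 0.00120 by limma-voom). Macrophage and cell division markers moved with this comparison. Of 23 macrophage markers 18 were lower in FAAH S268D and 0 higher (median -0.80), of 22 cell division genes 14 were lower and 0 higher (median -0.62), and of 20 hepatocyte markers 8 were higher and 0 lower (median 0.25). Their part in the fall of Cdkn1a, Bax and Btg2 was not tested.

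**Figure D2:**
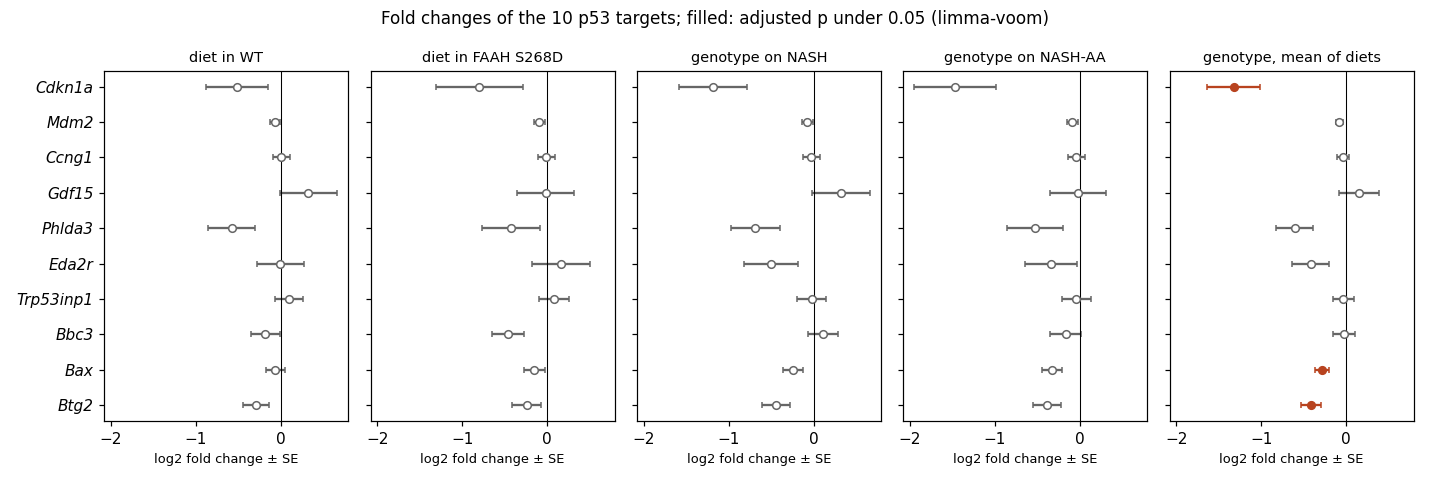
Log2 fold change (horizontal axis) with its SE for each of the 10 genes in 5 comparisons, where diet means NASH-AA minus NASH and genotype means FAAH S268D minus WT. Filled points passed the adjusted threshold of 0.05. Only Cdkn1a, Bax and Btg2 in the average over the diets are filled, and Cdkn1a has the most negative value in 4 of the 5 panels.

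Split by diet, 0 of 10 genes passed for genotype. On NASH, where 9.18% of all genes passed, Cdkn1a was at -1.18 ± 0.40 (adjusted p = 0.0584 by limma-voom) and Btg2 at -0.44 ± 0.16 (adjusted p = 0.0757). Phlda3 (-0.69 ± 0.29, adjusted p = 0.123) and Bax (-0.24 ± 0.12, adjusted p = 0.181) also had unadjusted p under 0.05, which made 4 of 10 genes against 25.7% of all genes. The count of calls was sensitive to single libraries. It rose to 3 (Cdkn1a, Phlda3 and Btg2) without WT NASH replicate 5 or FAAH S268D NASH replicate 5. Without FAAH S268D NASH replicate 8 it was 2 (Cdkn1a and Phlda3), and without replicate 6 it was 1 (Cdkn1a). The 9.18% of all genes belongs to the fit of all 32 libraries. The share of all genes passing without a library is not given here. Cdkn1a itself moved between -1.48 without FAAH S268D NASH replicate 8 and -0.77 without replicate 2.

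On NASH-AA, 0.658% of all genes passed for genotype and again 0 of 10 of the p53 targets. Cdkn1a was at -1.47 ± 0.48 (adjusted p = 0.154 by limma-voom), with 8 of 8 FAAH S268D libraries below the WT median and 8 of 8 WT libraries above the FAAH S268D median. Bax was at -0.33 ± 0.12 (adjusted p = 0.181) and Btg2 at -0.39 ± 0.16 (adjusted p = 0.247). These 3 genes had unadjusted p under 0.05, as had 15.6% of all genes. All 10 genes had a negative sign (median -0.25), against 49.3% of all genes (median 0.00). Fitting these 2 groups alone brought Cdkn1a past the threshold (-1.48 ± 0.26, adjusted p = 0.00618 by limma-voom). That fit leaves out both NASH groups and sets filter, size factors and weights anew. The cause of the change was not tested, and the share of all genes passing in that fit is not given here.

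The question of the diet was whether NASH-AA changed the same genes within each genotype. In WT 0 of 10 passed (4.41% of all genes passed) and in FAAH S268D 0 of 10 (0.0939%). One gene in each had an unadjusted p under 0.05, Phlda3 in WT (-0.58 ± 0.27, adjusted p = 0.188) and Bbc3 in FAAH S268D (-0.46 ± 0.19, adjusted p = 0.301). All genes reached that level in 24.4% and 12.4% of cases. Cdkn1a was at -0.51 ± 0.36 in WT and -0.80 ± 0.51 in FAAH S268D, with 7 of 8 and 8 of 8 NASH-AA libraries below the NASH median. Limma-trend, another linear model on log2 CPM, also called 0 of 10 in both genotypes and in both genotype comparisons within a diet.

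Averaged over genotypes, 0 of 10 genes passed for diet, against 10.9% of all genes. Unadjusted p was under 0.05 for 4, all negative, against 28.3% of all genes: Bbc3 (-0.32 ± 0.13, adjusted p = 0.0946), Btg2 (-0.27 ± 0.12, adjusted p = 0.124), Phlda3 (-0.50 ± 0.22, adjusted p = 0.124) and Cdkn1a (-0.66 ± 0.31, adjusted p = 0.166). Leaving out FAAH S268D NASH replicate 2 brought Cdkn1a and Phlda3 past the threshold, leaving out FAAH S268D NASH-AA replicate 3 Bbc3 and Btg2, and leaving out WT NASH replicate 6 Bbc3. With libraries weighted by their estimated quality, 5 of 10 passed (Cdkn1a, Mdm2, Phlda3, Bbc3 and Btg2), with Cdkn1a at -0.95 ± 0.27 (adjusted p = 0.00780) and Mdm2 at -0.11 ± 0.04 (adjusted p = 0.0368). The 10.9% of all genes belongs to the fit of all 32 libraries without such weights. The shares of all genes in the other fits are not given here, so their counts have no background beside them. The diet result therefore depended on how the libraries were weighted, while no setting made one of the 10 genes pass as higher on NASH-AA.

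The difference between the diet effects of the genotypes, the interaction, passed for 0 of 10 genes and for 0 of 14902 overall (0%). No member had an unadjusted p under 0.05, against 628 genes overall (4.21%), and limma-trend called 0 of 10 too. Cdkn1a was at -0.29 ± 0.63 (adjusted p = 0.953). The diet and genotype comparisons share their groups, so that their values for a gene are not independent.

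Library numbers in the labels run from 1 to 32, and each group is divided between numbers 1 to 16 and 17 to 32. The labels do not say what the number stands for. Cdkn1a differed between these ranges in the FAAH S268D NASH group, at 8.40 ± 7.77 CPM (SD, n = 5) for numbers 1 to 16 and 19.1 ± 11.9 CPM (n = 3) for 17 to 32. In WT NASH it was 22.02 ± 5.28 and 15.4 ± 7.36 CPM (n = 4 each), and in FAAH S268D NASH-AA 4.20 ± 2.52 and 4.90 ± 1.09 CPM (n = 4 each). WT NASH-AA was at 10.3 ± 2.79 (n = 3) and 14.1 ± 4.91 CPM (n = 5). The genotype difference of Cdkn1a on NASH was -2.27 ± 0.51 within 1 to 16 (adjusted p = 0.0270 by limma-voom) and 0.16 ± 0.39 within 17 to 32 (adjusted p = 0.933). On NASH-AA it was -1.30 ± 0.65 and -1.53 ± 0.47 in the same ranges (adjusted p = 0.741 and 0.236). Averaged over the diets Cdkn1a was at -1.79 (adjusted p = 0.0279) and -0.69 (adjusted p = 0.306), Bax at -0.45 (adjusted p = 0.0525) and -0.14 (adjusted p = 0.485), and Btg2 at -0.38 (adjusted p = 0.169) and -0.36 (adjusted p = 0.234). The genotype difference of Cdkn1a was thus negative in both ranges on NASH-AA, and on NASH in the lower numbers only. The difference between the ranges was not tested. With the range as a block over all 32 libraries, Cdkn1a, Bax and Btg2 passed (-1.25, -0.30 and -0.41, adjusted p = 0.00752, 0.0136 and 0.0170).

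**Figure D3:**
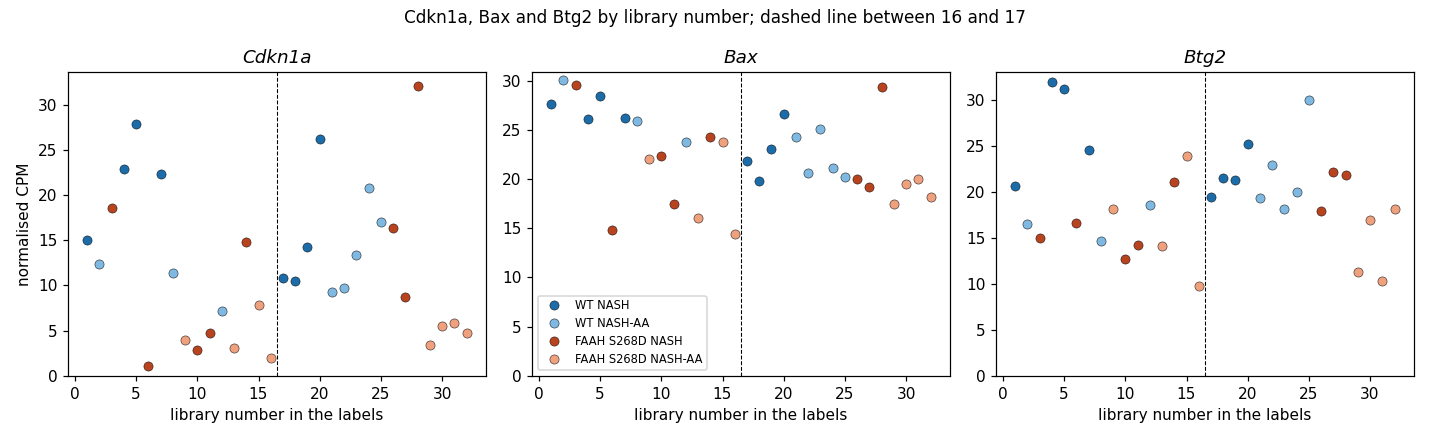
Normalised CPM of Cdkn1a, Bax and Btg2 against the library number in the labels, 1 point per library, coloured by group. Among FAAH S268D NASH libraries, Cdkn1a averages 8.40 CPM left of the dashed line and 19.1 CPM right of it, while FAAH S268D NASH-AA stays at 7.80 CPM or less on both sides.

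To see whether the 10 genes varied together within groups, group means were removed from log2 CPM and the 32 libraries correlated. Of 45 pairs 42 had r above 0, and 13 passed a permutation test within groups (100000 resamples, adjusted over the 45 pairs), each with positive r. The share of other gene pairs that would do so is not given here, so these counts have no background beside them. Btg2, which passed with Cdkn1a, stood at place 1230 among the tested genes ranked by r with Cdkn1a. Cdkn1a and Phlda3 were the closest pair (r = 0.85, rho = 0.77, adjusted permutation p = 0.0003). Cdkn1a followed Mdm2 (r = 0.77, rho = 0.66, adjusted permutation p = 0.0003) and Bax (r = 0.68, rho = 0.60, adjusted permutation p = 0.00328). Eda2r followed Trp53inp1 (r = 0.78, rho = 0.67, adjusted permutation p = 0.000337) and Ccng1 (r = 0.77, rho = 0.70, adjusted permutation p = 0.0003). These were not a set apart. Ccng1 also passed with Mdm2 (r = 0.66, rho = 0.46, adjusted permutation p = 0.00382), Cdkn1a (r = 0.59, rho = 0.41, adjusted permutation p = 0.0239) and Phlda3 (r = 0.57, rho = 0.48, adjusted permutation p = 0.0283). Gdf15 passed with none of the other genes, its r lying between -0.22 with Phlda3 and 0.36 with Bbc3.

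Part of this rested on 2 libraries. FAAH S268D NASH replicates 2 and 8 were the farthest from the median in most pairs. Leaving out the 2 farthest libraries of each pair left 7 of the 13 pairs past the threshold, Cdkn1a with Phlda3 (r = 0.72), with Mdm2 (r = 0.60) and with Btg2 (r = 0.55), Phlda3 with Bax (r = 0.57), Eda2r with Ccng1 (r = 0.65) and with Trp53inp1 (r = 0.61), and Ccng1 with Trp53inp1 (r = 0.60). The relation of Cdkn1a to Bax (r = 0.51, adjusted permutation p = 0.0632) and to Ccng1 (r = 0.32, adjusted permutation p = 0.317) then missed it. Within library numbers 1 to 16 and 17 to 32, Cdkn1a and Phlda3 gave r = 0.90 and 0.78, Cdkn1a and Mdm2 0.77 and 0.73, and Eda2r and Trp53inp1 0.70 and 0.79. Other pairs, which did not pass over 32 libraries, were unlike between the ranges. Cdkn1a and Trp53inp1 gave r = -0.16 and 0.75, Trp53inp1 and Bax -0.41 and 0.63, and Phlda3 and Eda2r 0.24 and 0.86. These differences between the ranges were not tested.

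**Figure D4:**
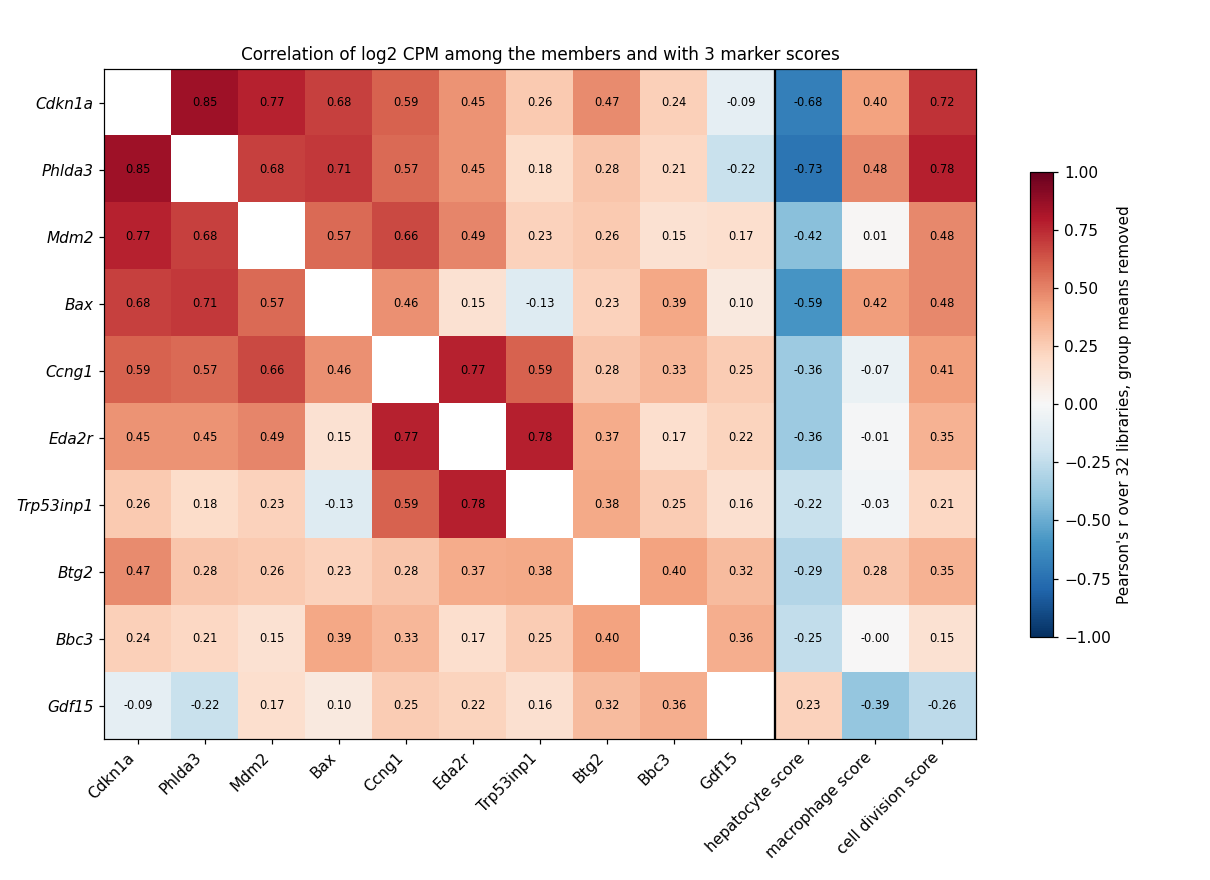
Pearson's r over 32 libraries after removal of group means, for each pair of the 10 genes (left of the black line) and for each gene with 3 marker scores (right of it). Red is positive and blue negative. Cdkn1a, Phlda3, Mdm2 and Bax form the red corner at the upper left, Eda2r goes with Ccng1 (0.77) and Trp53inp1 (0.78), and Gdf15 stays between -0.22 and 0.36 with the other genes.

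The same within-group variation was set against the mean log2 CPM of marker lists. Of 30 pairs of gene and score, 5 passed the permutation test. The share of other genes that would pass with these scores is not given here. Cdkn1a rose with the cell division score (r = 0.72, rho = 0.68, adjusted permutation p = 0.00430) and fell with the hepatocyte score (r = -0.68, rho = -0.68, adjusted permutation p = 0.00555). Phlda3 did the same (r = 0.78 and -0.73, rho = 0.69 and -0.70, adjusted permutation p = 0.0009 and 0.00165), and Bax fell with the hepatocyte score (r = -0.59, rho = -0.63, adjusted permutation p = 0.0131). These 5 held without the 2 libraries farthest from the median of the gene, with r of 0.67 and -0.68 for Cdkn1a, 0.77 and -0.74 for Phlda3, and -0.58 for Bax. In library numbers 1 to 16 and 17 to 32 the r of Cdkn1a was 0.90 and 0.46 with cell division and -0.74 and -0.69 with the hepatocyte score. The macrophage score passed with none of the 10 genes over 32 libraries (Cdkn1a r = 0.40, rho = 0.40, adjusted permutation p = 0.127). Without the 2 farthest libraries it passed with Phlda3 (r = 0.53, adjusted permutation p = 0.0455) and with Gdf15 in the opposite direction (r = -0.45, adjusted permutation p = 0.0458). Eda2r then passed with the cell division score (r = 0.52, adjusted permutation p = 0.0305, against r = 0.35 over 32 libraries). A cell cycle inhibitor and genes of dividing cells were thus high in the same libraries within a group.

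**Figure D5:**
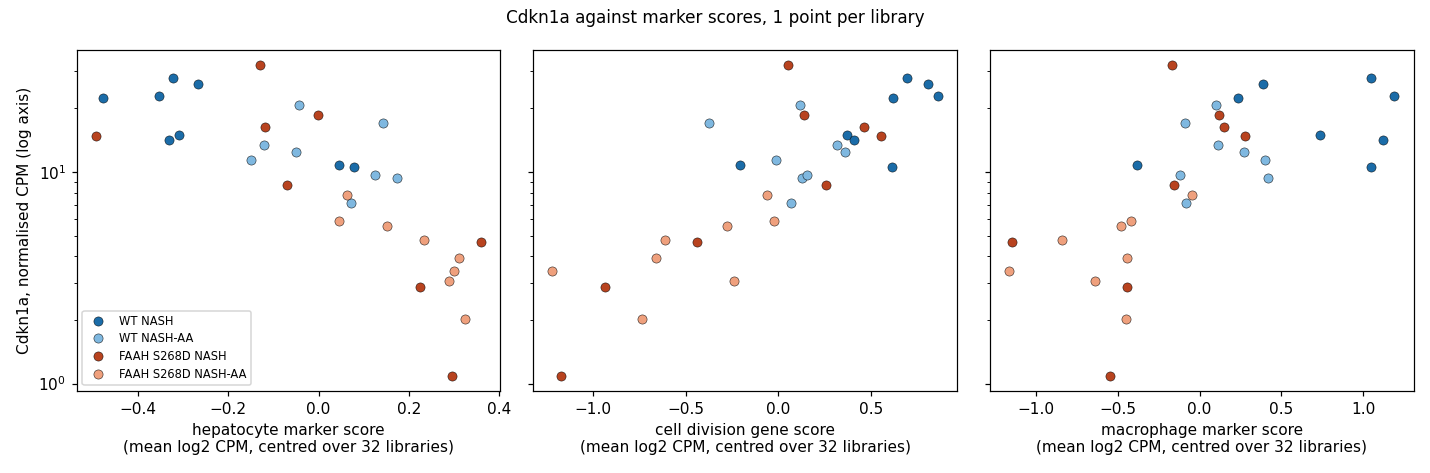
Cdkn1a in normalised CPM (log axis) against the hepatocyte, cell division and macrophage scores (mean log2 CPM of each list, centred over 32 libraries), 1 point per library, coloured by group. Libraries low in Cdkn1a lie at high hepatocyte and low cell division scores, FAAH S268D NASH replicate 2 at 1.09 CPM among them.

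Among all 14902 genes, those most like Cdkn1a within groups were Lmna (r = 0.89), the nuclear lamin A and C gene, followed by Zfand2a (r = 0.86), Hr (r = 0.86), Tpm1 (r = 0.85), a tropomyosin of the actin cytoskeleton, and S100a11 (r = 0.85). This ranking is a description over 32 libraries that share their groups and sequencing. S100a11 averaged 51.5 CPM on NASH and 23.6 on NASH-AA in WT, and 34.5 and 11.6 CPM in FAAH S268D, so that its highest and lowest groups were those of Cdkn1a. Of the p53 targets Phlda3 stood at place 6 of that ranking and Mdm2 at 49, with Bax at 226, Ccng1 at 541, Btg2 at 1230, Eda2r at 1430, Trp53inp1 at 3475, Bbc3 at 3614 and Gdf15 at 9006.

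A list of 33 further p53 targets, 32 of them tested, changed in both directions. For genotype averaged over the diets 6 were lower and 1 higher (median -0.05), 7 of 32 against 17.2% of all genes, a share near the background. Sfn, the gene of the checkpoint protein 14-3-3 sigma, had the largest difference of those named (-1.95 ± 0.23, adjusted p = 9.45e-07 by limma-voom). In WT its means were 1.41 ± 0.357 CPM on NASH and 1.095 ± 0.436 on NASH-AA, and in FAAH S268D 0.328 ± 0.232 and 0.299 ± 0.196 CPM (SD, n = 8 each). Its level was low, so that counting error is large in single libraries. Dram1, which acts in autophagy, fell by 0.73 ± 0.17 on the log2 scale (adjusted p = 0.00355), Pmaip1, which encodes the BH3-only protein Noxa, by 0.66 ± 0.15 (adjusted p = 0.00380), and Apaf1, the apoptosome scaffold, by 0.45 ± 0.11 (adjusted p = 0.00765). The 1 higher gene, Dcxr (0.36 ± 0.10, adjusted p = 0.0143), was named after its values were seen. Within single diets, genotype called 6 lower and 2 higher on NASH (median -0.04), 8 of 32 against 9.18% of all genes, and 1 lower, Sfn, on NASH-AA (median -0.11), against 0.658%. For diet in WT 2 were lower and 2 higher (median -0.07), against 4.41% of all genes, namely Pmaip1 (-0.89 ± 0.19, adjusted p = 0.0175), Plk2 (-0.55 ± 0.15, adjusted p = 0.0343), Tmem19 (0.37 ± 0.09, adjusted p = 0.0214) and the death receptor gene Fas (0.34 ± 0.10, adjusted p = 0.0433). In FAAH S268D the diet called 0 of 32 (median -0.07), against 0.0939% of all genes.

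Upstream of these targets, 10 of 13 regulators of p53 and DNA damage kinases were tested. The 7 comparisons called 0 of 10 each. Of all genes 17.2% passed for genotype averaged over the diets, but 0.0939% for diet in FAAH S268D and 0% for the interaction. With shares as small as the last, 0 of 10 says little. For genotype averaged over the diets the list median was -0.04. Trp53 (adjusted p = 0.0959 by limma-voom) was the 1 gene of the list with an unadjusted p under 0.05 there, against 31.1% of all genes. For genotype on NASH 10 of 10 were negative (median -0.10) without a call, against 49.9% of all genes negative.

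Neighbouring lists were counted for genotype averaged over the diets, in which 10.3% of all genes were lower and 6.90% higher. Among 23 cell death genes 5 were lower and 2 higher (median -0.06). The necroptosis genes Mlkl (-0.47 ± 0.10, adjusted p = 0.00173 by limma-voom) and Ripk3 (-0.50 ± 0.14, adjusted p = 0.0113) and the BH3-only gene Bcl2l11 (-0.33 ± 0.11, adjusted p = 0.0377) fell. Of 11 tested senescence genes and secreted factors 5 were lower and 0 higher (median -0.21). They included the chemokine gene Ccl2 (-1.46 ± 0.27, adjusted p = 0.000704), the macrophage elastase gene Mmp12 (-2.07 ± 0.42, adjusted p = 0.00160) and Hmga1 (-0.24 ± 0.07, adjusted p = 0.0216). These are not specific to senescent cells, and 18 of 23 macrophage markers fell in the same comparison, whose part in these changes was not tested.

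The next lists are counted for genotype averaged over the diets too, where 10.3% of all genes were lower and 6.90% higher. Of 12 integrated stress response genes 5 were lower and 0 higher (median -0.22). Atf3, a stress-induced transcription factor, fell most among those named (-1.18 ± 0.26, adjusted p = 0.00282). Its means on NASH and NASH-AA were 8.49 ± 3.36 and 4.56 ± 1.13 CPM in WT, against 3.73 ± 2.48 and 2.22 ± 0.751 CPM in FAAH S268D (SD, n = 8 each). Asns (-0.94 ± 0.25, adjusted p = 0.0109), Nupr1 (-0.64 ± 0.18, adjusted p = 0.0133) and the hormone gene Fgf21 (-0.90 ± 0.30, adjusted p = 0.0339) fell as well. Gdf15, which that pathway also controls, did not pass in any comparison. Among 15 immediate early genes 5 were lower and 1 higher (median -0.04). Myc (-1.30 ± 0.28, adjusted p = 0.00210), Klf6 (-0.69 ± 0.17, adjusted p = 0.00543) and Fosb (-1.01 ± 0.29, adjusted p = 0.0177) fell, while Zfp36 rose (0.49 ± 0.15, adjusted p = 0.0229).

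Markers of other cells are given for the same comparison and against the same background. Summed macrophage markers in WT ran from 798 to 2301 CPM on NASH and 906 to 1243 on NASH-AA. In FAAH S268D they ran from 552 to 1354 and 536 to 948 CPM. Summed cell division genes ran from 68.0 to 115 and 69.5 to 102 CPM in WT, and from 50.3 to 98.8 and 51.7 to 80.5 CPM in FAAH S268D. Summed hepatocyte markers ran from 74000 to 105400 and 90120 to 112400 CPM in WT, and from 80500 to 134200 and 107700 to 126300 CPM in FAAH S268D. Of the remaining lists, T and NK cell markers were lower for 6 of 8 tested genes, neutrophil markers for 3 of 3 and stellate cell markers for 3 of 10, with 0 higher in each. B and plasma cell, cholangiocyte, endothelial, erythroid and pancreas acinar lists had 0 calls, and the adipocyte list had 1 tested gene, Cidec, which was lower (chosen after its values were seen). Lep, Pnlip, Slc12a1 and Kap were at 0 counts in every library.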

How the data were processed

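Polyadenylated RNA of whole liver was sequenced in 32 libraries. Trim Galore 0.6.7, UMI-tools 1.1.2, STAR 2.7.10 and GRCm38 are named in the submitters' processing notes. How reads were counted, and whether by strand, was not given in the sources used here. The values are estimated counts per gene, deposited as 1 table without scaling, part of it altered by a spreadsheet. Of 1775584 cells, 87.9% were whole numbers. The rest carried digit-grouping, time or day-fraction marks and were restored by fixed rules, 1558 cells having 2 possible originals. Of 320 cells of the 10 genes 89 had been altered and 0 had 2 possible originals. The altered cells were uneven between genes. They numbered 32 for Bax, every library, 29 for Mdm2, 11 for Trp53inp1, 7 each for Cdkn1a and Bbc3, and 3 for Eda2r. Ccng1, Gdf15, Phlda3 and Btg2 had 0. 0 columns belonged to other samples. Values were rounded.

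Because the table does not read as plain counts, limma-voom (limma 3.58.1, R 4.3.3; prior count 0.5) was used, with TMM factors by own code trimming 30% of log ratios and 5% of levels. Genes needed 15 counts in total and, in 8 libraries, the CPM that 10 counts give at median depth. One mean per group was fitted over 32 libraries, with 7 contrasts. On simulated counts for diet in WT (14902 genes), the fit recovered 83 of 100 2-fold and 100 of 100 4-fold changes, with 7 false among 190 calls. The simulation gave every gene and group the same dispersion of 0.08. Recovery was not tested for genes as uneven as Cdkn1a, whose SD was 82.9% of its mean in FAAH S268D NASH. Replicate numbers did not pair libraries.

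The members and gene lists were chosen with earlier results of these data known. Named genes are the 10 members, Trp53, up to 4 genes per list with the smallest p in a comparison, and the 5 genes most correlated with Cdkn1a, unnamed genes left out; 2 genes that this rule takes are not reported here. Positions are GRCm38, 1-based, from GENCODE; promoters are from RefSeq.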

Additional observations from a re-analysis of the deposited data

Results flagged for a closer look

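The lowest or highest library was set apart from the other 7 in 3 of 44 sets of gene and group checked, by a gap to its neighbour wider, as a share of the group's range, than Dixon's 95% critical value, which chance passes in about 1 of 20 sets. Mdm2 in FAAH S268D NASH was lowest in replicate 2, at 23.67 CPM against 28.98 to 34.73 in the other libraries (gap 0.528 of the range). Trp53inp1 in WT NASH-AA was lowest in replicate 1, at 19.25 CPM against 27.54 to 35.58 (0.583). Trp53 in FAAH S268D NASH was highest in replicate 1, at 29.6 CPM against 20.55 to 23.46 (0.642), and that library was the shallowest, with 3851388 counts. Its replicates 2 and 8, at the ends of the Cdkn1a range, did not pass the test for Cdkn1a.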

How the results depend on the processing

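The call of Cdkn1a, Bax and Btg2 for genotype averaged over the diets held with other size factors, no filter or a stricter one, limma-trend, quality weights, the other reading of cells with 2 possible originals, and without each library (3 to 4 genes called, the fourth being Phlda3). With the replicate block it stayed at 3 (Cdkn1a at -1.22, adjusted p = 0.0120), and the block changed the count in none of the comparisons. Same-numbered libraries of different groups correlated at a median of 0.016 over 48 pairs, and 1 of 32 libraries matched its own number best. Within library numbers 1 to 16 alone 1 gene was called and within 17 to 32 alone 0, where fewer libraries enter. For genotype on NASH, 1 was called within 1 to 16, and leaving out single libraries gave 0 to 3. Within 17 to 32 the genotype differences of Cdkn1a and Phlda3 on NASH were 0.158 ± 0.386 and 0.007 ± 0.336 (SE). Their sign was opposite, but each was smaller than its SE, so that no reversal is shown. Quality weights called 1 gene for diet in WT (Phlda3), 2 for genotype on NASH-AA (Cdkn1a and Bax) and 5 for diet averaged over genotypes, for which leaving out single libraries gave 0 to 2. The 2 groups fitted alone gave 1 for genotype on NASH-AA. The shares of all genes passing in these other settings are not given here, so these counts have no background beside them. The cause of these changes was not tested. Correlated pairs numbered 13 among members and 5 with scores, also without a background of other genes. With group means kept, so that group differences enter, they numbered 23 and 15. Without the 2 libraries farthest for the first gene of a pair they numbered 7 and 8. Of 70 values of gene and comparison, 52 had an unadjusted p of 0.05 or more and passed in no setting, and 147 of their 2215 alternative values had the other sign (lowest adjusted p 0.0526). edgeR and DESeq2 were not run. The shallowest library held 3851388 counts, which limits Eda2r (1 count there), Phlda3 and Sfn.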
